A study of Homo sapiens with 6 samples.

Results

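Wide accessible peaks were defined by their width alone, as ATAC-seq peaks of 600 bp or more in the long peak list of HET-1A (library 2) and in that of KYSE-30 (library 6). They were 455 of 15979 peaks (2.85%) in HET-1A library 2 and 483 of 11671 peaks (4.14%) in KYSE-30 library 6, together 938 of the 29879 peaks in all 6 lists of the study. ATAC-seq marks open chromatin by where the Tn5 transposase can cut. The study had 2 libraries for each of 3 untreated human oesophageal lines: HET-1A (libraries 1 and 2), a non-cancer epithelial line grown in BEBM medium with additives, and the squamous cell carcinoma (ESCC) lines KYSE-30 (libraries 4 and 6) and KYSE-150 (libraries 7 and 8), grown in RPMI/F12 with serum and antibiotics. HET-1A was made from normal oesophageal epithelium with SV40 large T antigen, so it is an immortalised line and not primary tissue, and its medium differs from that of both ESCC lines. The other 4 lists were short: library 1 (HET-1A) had 168 peaks, library 4 (KYSE-30) 1255, and libraries 7 and 8 (both KYSE-150) 547 and 259. Of these 7, 16, 10 and 15 peaks were 600 bp or wider. Unless a library number is given, HET-1A and KYSE-30 below stand for the long lists of libraries 2 and 6.

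A peak is a run of bases in which the cut density stays above the local background, so its width depends on how far the open DNA extends and on how many fragments a library holds. At an active promoter the nucleosome-free stretch lies just upstream of the transcription start site, and where a pair of genes start close together in opposite directions it is bounded by nucleosomes on both sides. Enhancers are usually further from a start site and carry binding motifs of factors such as AP-1, the FOS and JUN dimer known for its place at enhancers of epithelial cells.

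The sequences below are 240 bases at the summits of 5 wide peaks on the forward strand of GRCh37 (the same sequence as hg19), shown because the first 3 lay under peaks that were wide in both long lists and the last 2 under wide KYSE-30 peaks outside promoters. They are not all the sites of these kinds, and each printed window holds a motif core, which others did not. The window of the LINC00854 site was chr17:41400646-41400885, intergenic, that of the PPFIA1 promoter was chr11:70116549-70116788, that of the ENSG00000289540 promoter was chr5:40679447-40679686, that of the EGFR first intron was chr7:55200561-55200800, and that of the intronic site near NDUFB3P5 was chrX:140500035-140500274. No window overlapped an annotated UTR, and that of PPFIA1 overlapped an exon of the long non-coding RNA ENSG00000289074 on the other strand. Capitals mark the motif cores found on either strand: AP-1 (TGACTCA or TGAGTCA), the E-box (CACGTG), the NF-Y core (CCAAT) and the SP/KLF core (GGGCGG, read as CCGCCC on the other strand).
LINC00854 site: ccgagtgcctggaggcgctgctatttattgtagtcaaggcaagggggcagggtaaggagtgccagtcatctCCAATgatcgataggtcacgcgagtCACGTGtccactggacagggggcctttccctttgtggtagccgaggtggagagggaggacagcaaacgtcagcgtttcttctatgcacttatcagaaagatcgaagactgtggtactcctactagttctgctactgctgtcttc
PPFIA1 promoter: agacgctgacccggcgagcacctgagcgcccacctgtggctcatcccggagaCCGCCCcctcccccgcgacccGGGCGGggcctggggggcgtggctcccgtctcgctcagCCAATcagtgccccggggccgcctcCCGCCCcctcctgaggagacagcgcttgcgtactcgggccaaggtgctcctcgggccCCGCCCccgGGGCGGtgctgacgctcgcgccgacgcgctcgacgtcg
ENSG00000289540 promoter: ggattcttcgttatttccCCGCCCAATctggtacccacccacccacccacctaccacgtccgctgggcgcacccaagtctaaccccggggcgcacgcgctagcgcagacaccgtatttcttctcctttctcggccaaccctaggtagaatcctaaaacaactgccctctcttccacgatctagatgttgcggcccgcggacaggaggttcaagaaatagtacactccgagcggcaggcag
EGFR first intron: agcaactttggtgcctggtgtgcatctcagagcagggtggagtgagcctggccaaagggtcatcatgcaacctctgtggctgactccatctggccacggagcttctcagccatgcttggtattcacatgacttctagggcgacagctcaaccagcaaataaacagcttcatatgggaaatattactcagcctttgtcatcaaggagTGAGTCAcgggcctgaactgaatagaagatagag
site near NDUFB3P5: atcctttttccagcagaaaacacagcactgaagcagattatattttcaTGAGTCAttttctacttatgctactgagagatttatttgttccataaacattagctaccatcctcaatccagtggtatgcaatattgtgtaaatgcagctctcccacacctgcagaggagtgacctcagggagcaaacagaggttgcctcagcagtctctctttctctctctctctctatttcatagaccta
In the ENSG00000289540 promoter an SP/KLF core and an NF-Y core share bases. The PPFIA1 window held 6 matches, of the SP/KLF and NF-Y cores, and the EGFR and NDUFB3P5 windows held 1 AP-1 core each. The windows of 3 of the 5 widest HET-1A peaks outside promoters, near KRTAP5-7, RNU7-92P and AC011456.1, not printed, held none of the 8 cores searched. Of 20163 windows of 200 bp at the starts of protein-coding genes, 46.6% held the SP/KLF core, 25.8% the NF-Y core, 5.85% the E-box and 2.62% the AP-1 core. A match is a description of the letters and not a measured binding site.

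Widths fell off smoothly through the threshold. HET-1A widths ran from 200 to 1764 bp with a median of 271 bp, and KYSE-30 widths from 200 to 1518 bp with a median of 284 bp. Between 590 and 599 bp lay 38 HET-1A and 36 KYSE-30 peaks, and between 600 and 609 bp lay 31 and 34. The HET-1A peaks just inside, at 600 bp, were at the starts of SPAG5 and ODAD1, and the nearest just outside, at 599 bp, were by LINC02947 and ENSG00000287457. In KYSE-30 the peaks at 600 bp were by HNRNPA2B1, NSUN4, SGIP1 and RNU1-60P, and those at 599 bp by U3, PPP2R1B, TSNAXIP1 and ENSG00000253561. Median width of the wide peaks was 683 bp in HET-1A and 678 bp in KYSE-30. Only 19 HET-1A and 10 KYSE-30 peaks reached 1000 bp.

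**Figure D1:**
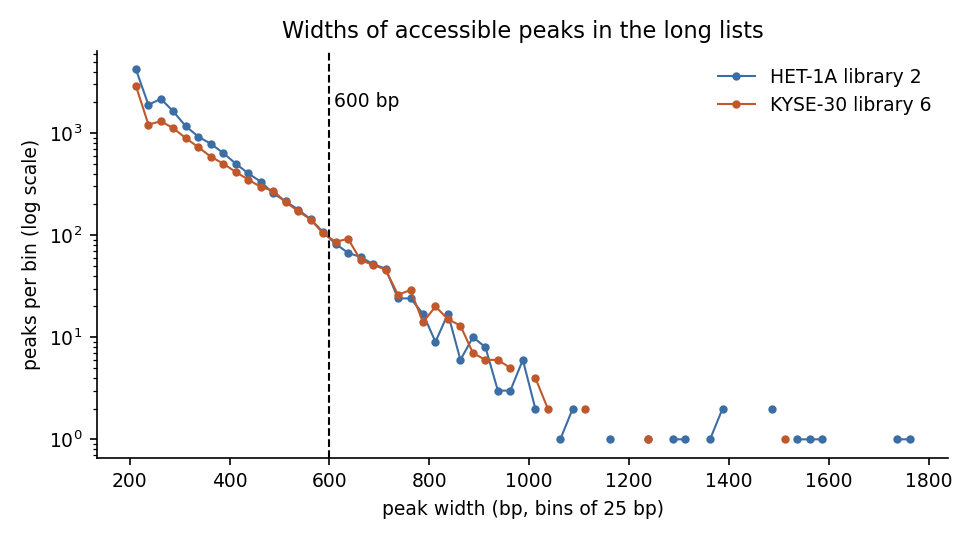
Number of peaks (log scale) by peak width in bins of 25 bp for HET-1A library 2 (blue) and KYSE-30 library 6 (orange), with the threshold of 600 bp dashed; bins with no peak are not drawn. Counts fall without a gap or step at the threshold, and 19 HET-1A and 10 KYSE-30 peaks were 1000 bp or wider.

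Width and depth of a peak came from the same reads, so the following values describe the members and support nothing. The tags at a summit, which the fold enrichment and p-value of the authors' peak caller fix, had a median of 41 at wide and 25 at narrower HET-1A peaks, and of 28 and 16 in KYSE-30. Median fold enrichment over the local background was 4.87 against 4.20 in HET-1A and 6.94 against 5.41 in KYSE-30. Of the HET-1A peaks with 20 to 29 tags 1.41% were wide, and of those with 40 to 59 tags 7.71%; in KYSE-30 these shares were 6.23% and 26.1%. The lowest local background of a library, taken as its genome background, was 3.34 tags per 200 bp for HET-1A against 1.49 for KYSE-30, a ratio of 2.25, so the libraries differed in depth and counts of wide peaks are not compared between lines.

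Wide peaks lay at transcription start sites more often than narrower peaks of the same library. In KYSE-30, 383 of 483 wide peaks (79.3%, Wilson 95% interval 75.5 to 82.7) lay within 3 kb of a start site, against 54.0% (53.1 to 55.0) of the 11188 narrower peaks. In HET-1A, 298 of 455 wide peaks did (65.5%, 61.0 to 69.7), against 52.8% (52.0 to 53.5) of 15524 narrower peaks. The intervals cover counting error within a library only: each long list is 1 library, its peaks are not replicates, and no test was run. With 2 libraries per line, an exact permutation test between lines could not give a two-sided p below 0.33.

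A start site lay inside 243 wide HET-1A peaks (53.4%, 48.8 to 57.9) and 30.5% of the narrower, and inside 345 wide KYSE-30 peaks (71.4%, 67.2 to 75.3) and 33.4% of the narrower. A wider peak covers more bases, so distances were also taken from the summit, which does not grow with width. In KYSE-30 a start lay within 100 bp of the summit at 51.6% of wide (47.1 to 56.0) and 27.4% of narrower peaks (26.6 to 28.3), and the median distance from summit to the nearest start was 94.0 bp against 1915 bp. In HET-1A the same shares were 30.5% (26.5 to 34.9) and 25.1% (24.4 to 25.7), and the medians 309 bp and 2506 bp. The difference at 100 bp was smaller in HET-1A than in KYSE-30, and was not tested between the lines.

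The shares were also compared at like depth. Among KYSE-30 peaks with 20 to 29 tags at the summit, 49.7% of wide (42.6 to 56.9) and 32.5% of narrower peaks (30.8 to 34.3) had a start within 100 bp of the summit, and with 40 to 59 tags 65.2% (53.1 to 75.5) and 35.8% (29.3 to 42.9). Among HET-1A peaks with 20 to 29 tags the shares were 32.7% (24.2 to 42.4) and 26.4% (25.4 to 27.5). With 30 to 39 tags they were 38.7% (30.4 to 47.6) and 32.0% (30.4 to 33.7), and with 60 or more 17.4% (11.5 to 25.3) and 10.4% (8.38 to 12.9). The intervals of these pairs overlap. At 40 to 59 tags they were 32.8% (24.9 to 41.7) and 33.5% (31.1 to 36.1), which cannot be told apart. The share within 3 kb of a start still differed at 40 to 59 tags, at 79.3% of wide (71.1 to 85.7) and 67.0% of narrower HET-1A peaks (64.5 to 69.4).

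**Figure D2:**
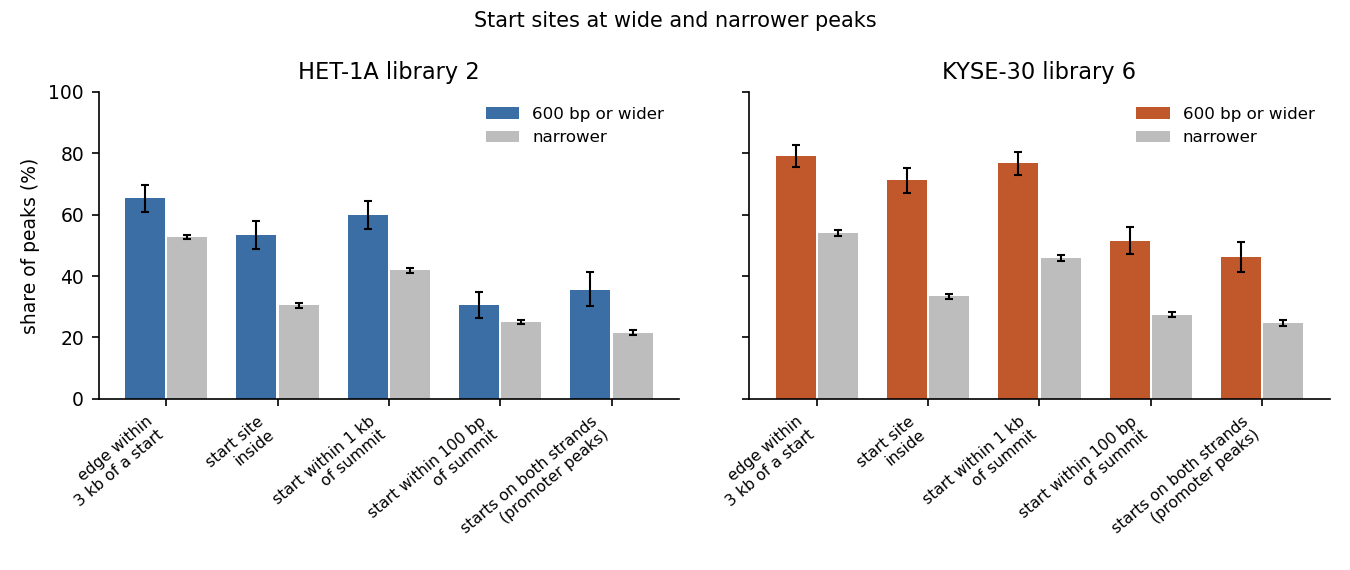
Share of peaks (%, axis from 0) with a start site near or inside, for wide (coloured) and narrower (grey) peaks of HET-1A library 2 (left) and KYSE-30 library 6 (right); bars are Wilson 95% intervals, which cover counting error only. The wide bars are higher in every pair, from 71.4% against 33.4% for a start inside in KYSE-30 to 30.5% against 25.1% for a start within 100 bp of the summit in HET-1A.

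Wide promoter peaks more often had starts on both strands. Starts on both strands within 500 bp of the summit were annotated at 106 of 298 wide promoter peaks of HET-1A (35.6%, 30.4 to 41.2) and at 21.6% of its narrower promoter peaks (20.7 to 22.5). In KYSE-30 they were annotated at 177 of 383 (46.2%, 41.3 to 51.2) and at 24.7% (23.6 to 25.8). Among KYSE-30 promoter peaks with 20 to 29 tags the shares were 51.1% (42.8 to 59.3) and 26.8% (24.8 to 29.0), and among HET-1A promoter peaks with the same tags 39.3% (28.1 to 51.9) and 21.6% (20.3 to 22.9). With 40 to 59 tags the HET-1A shares were 33.7% (24.9 to 43.8) and 26.1% (23.4 to 29.0), and the intervals overlap. The KYSE-30 shares with 30 to 39 tags were 46.9% (37.2 to 56.8) and 34.6% (29.9 to 39.5). With 40 to 59 tags they were 52.5% and 33.3%, and the KYSE-30 intervals overlap at both of these depths. Starts of 2 or more genes lay inside 108 wide HET-1A peaks (23.7%) and 176 wide KYSE-30 peaks (36.4%), against 8.23% and 9.03% of the narrower, a measure that grows with width, such as the 969-bp KYSE-30 peak over SF3B6, a spliceosome subunit, and FAM228B. Of the wide promoter peaks, the nearest start belonged to a protein-coding gene at 82.9% in HET-1A and 83.6% in KYSE-30, against 77.0% and 77.6% of the narrower.

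The summits of wide peaks had a higher CpG ratio than those of narrower peaks, although not in HET-1A at a minimum of 800 bp, where the median was 0.348 at 81 wide peaks and 0.360 at narrower peaks. Vertebrate promoters without DNA methylation keep their CpG dinucleotides and are known as CpG islands. The median ratio of observed to expected CpG in 200 bp at the summit was 0.640 at wide and 0.354 at narrower HET-1A peaks, and 0.741 and 0.383 in KYSE-30. Median GC content was 59.5% against 55.0% in HET-1A and 61.0% against 54.0% in KYSE-30, while 10 kb downstream of the wide summits it was 46.5% and 40.5%. Within promoter peaks the median CpG ratio was 0.812 at wide and 0.730 at narrower HET-1A peaks and 0.803 and 0.738 in KYSE-30, and outside promoters 0.223 and 0.211, and 0.227 and 0.195.

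Motif cores at the summit differed by place. At wide promoter peaks the SP/KLF core stood in 59.1% (53.4 to 64.5) in HET-1A and 54.6% (49.6 to 59.5) in KYSE-30, against 47.8% (46.8 to 48.9) and 45.1% (43.9 to 46.4) of the narrower promoter peaks. The NF-Y core stood in 41.3% of wide (36.4 to 46.2) and 34.7% of narrower KYSE-30 promoter peaks (33.5 to 35.9), and in 36.6% (31.3 to 42.2) and 32.7% (31.7 to 33.7) in HET-1A, where the intervals overlap. The AP-1 core was less frequent at wide promoter peaks, at 6.04% (3.85 to 9.34) and 6.53% (4.46 to 9.46) against 12.6% (11.9 to 13.4) and 13.0% (12.2 to 13.9). Outside promoters the AP-1 core stood in 37 of 100 wide KYSE-30 peaks (37.0%, 28.2 to 46.8) and 42.8% of the narrower (41.4 to 44.2), which cannot be told apart. In HET-1A it stood in 32 of 157 wide (20.4%, 14.8 to 27.4) and 32.5% of narrower peaks (31.4 to 33.5). Without the segments of raised background described below, the HET-1A shares were 28.9% (20.3 to 39.4) and 34.0% (32.9 to 35.2), and the intervals overlap. At 10 kb downstream of the wide peaks outside promoters the core stood at 5 of 157 in HET-1A and 3 of 100 in KYSE-30.

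Wide sites were found again in the other libraries more often than narrower sites. A KYSE-30 peak overlapped 224 wide HET-1A sites (49.2%, 44.7 to 53.8) and 4346 of 15524 narrower sites (interval 27.3 to 28.7%), beside 28.6% of all HET-1A peaks. A HET-1A peak overlapped 326 wide KYSE-30 sites (67.5%, 63.2 to 71.5) and 37.9% of the narrower (37.0 to 38.8), beside 39.1% of all KYSE-30 peaks. With the summit base alone required to lie in a peak of the other list, the shares were 43.3% (38.8 to 47.9) against 26.5% and 60.9% (56.4 to 65.1) against 35.8%. At like depth the difference was smaller in KYSE-30, but not at every depth in HET-1A. Among KYSE-30 peaks with 20 to 29 tags the summit lay in a HET-1A peak at 57.4% of wide (50.1 to 64.3) and 47.2% of narrower peaks (45.3 to 49.1), but with 30 to 39 tags at 64.8% (55.9 to 72.7) and 59.9% (55.8 to 63.8), and with 40 to 59 tags at 80.3% (69.2 to 88.1) and 67.4% (60.4 to 73.7), where the intervals overlap. With 20 to 29 tags the summit lay in a KYSE-30 peak at 39.8% of wide (30.7 to 49.7) and 29.0% of narrower HET-1A peaks (27.9 to 30.0). With 40 to 59 tags it did at 54.3% of wide (45.3 to 63.1) and 32.3% of narrower HET-1A peaks (29.9 to 34.8). With overlap of at least 50% of each peak required, the shares were 26.2% against 22.8% in HET-1A and 31.5% against 31.3% in KYSE-30. A wide peak meets this only if the other peak spans at least 50% of its bases.

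In the other library of the same line, 118 wide KYSE-30 sites had a peak of library 4 (24.4%, 20.8 to 28.5) and 5.18% of the narrower (4.78 to 5.60). Library 1 had a peak at 17 wide HET-1A sites (3.74%, 2.35 to 5.90) and at 29 narrower sites (0.187%, 0.130 to 0.268). Of the KYSE-150 libraries, library 7 had a peak at 5.93% of wide HET-1A and 9.94% of wide KYSE-30 sites, against 223 of 15524 and 168 of 11188 narrower sites. For library 8 the shares were 3.74% against 0.444% for HET-1A sites and 1.04% (0.443 to 2.40) against 0.393% (0.293 to 0.528) for KYSE-30 sites, and the last pair of intervals overlaps. The short lists hold few peaks, which limits what absence there shows. Their lowest local background was 1.88, 2.36, 2.80 and 2.64 tags per 200 bp in libraries 1, 4, 7 and 8, above the 1.49 of library 6. Why they hold few peaks was not tested.

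**Figure D3:**
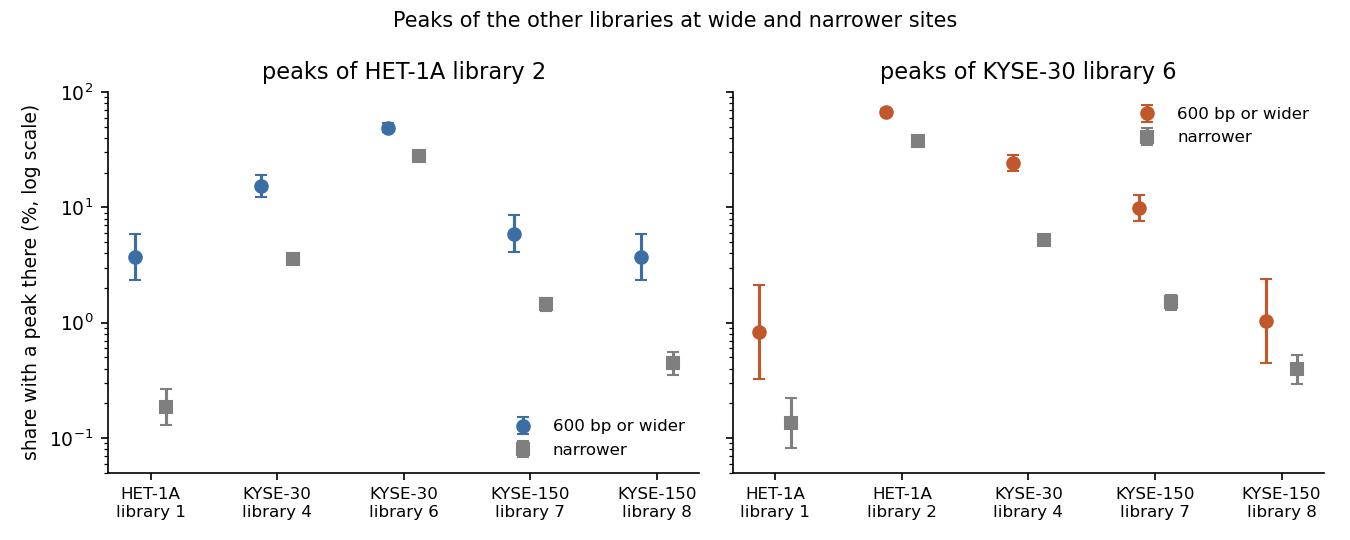
Share (%, log scale) of wide (coloured circles) and narrower (grey squares) peaks that overlapped a peak of each other library, for HET-1A library 2 (left) and KYSE-30 library 6 (right), with Wilson 95% intervals for counting error. Wide sites are higher in all 10 pairs, and the intervals overlap only for KYSE-30 peaks in KYSE-150 library 8, at 1.04% against 0.393%.

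Far fewer wide sites were wide in the other list than had a peak there, yet a larger share than of the narrower sites. Over the 4570 HET-1A peaks with a KYSE-30 peak, widths in the lists had a Pearson r of 0.21 on the log scale and a Spearman rho of 0.21, across sites and not samples. Of the wide HET-1A sites, 40 were wide in KYSE-30 too, 184 were narrower there and 231 had no peak. Of the wide KYSE-30 sites, 40 were wide in HET-1A, 286 were narrower and 157 had no peak. A wide KYSE-30 peak thus met 8.79% of wide HET-1A sites (6.52 to 11.8) and 1.98% of the narrower (1.78 to 2.22). A wide HET-1A peak met 8.28% of wide KYSE-30 sites (6.14 to 11.1) and 1.77% of the narrower (1.54 to 2.03). Where a wide site had a narrower peak in the other list, that peak had a median width of 342 bp in KYSE-30 and 332 bp in HET-1A. Sites with a narrower peak in the other list were at promoters in 80.4% and 85.3%, and sites with no peak there in 51.5% and 68.8%.

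**Figure D4:**
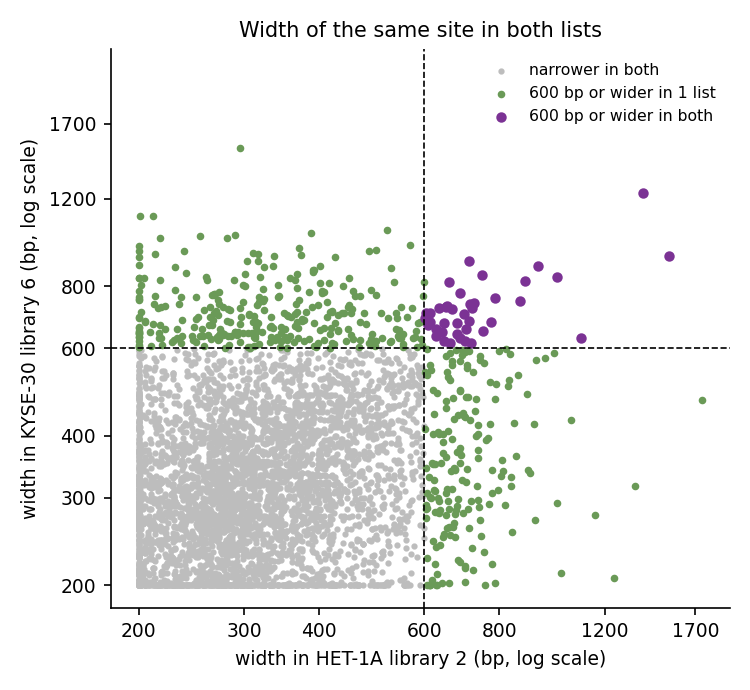
Width in HET-1A library 2 against width in KYSE-30 library 6 (bp, both axes log scale) for the 4570 HET-1A peaks that overlap a KYSE-30 peak; dashed lines mark 600 bp. Only 40 sites lie past the threshold in both lists (purple), and the widest KYSE-30 peak, 1518 bp, meets a HET-1A peak of 295 bp.

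Of the 40 sites wide in both lists, 31 lay at promoters, 15 had starts on both strands and 22 had a peak in no further library. In at least 1 of the long lists, 4 of the 40 lay in the segments of raised background described below. Among these were PPFIA1 and the pair ZNF565 and ZNF146. The peak over NFYA, the DNA-binding subunit of the CCAAT factor NF-Y, and its neighbour OARD1 (chr6:41040064-41040990) was 927 bp wide in HET-1A against 880 bp in KYSE-30, and no peak was called there in the other libraries. That over PPFIA1, a liprin scaffold of cell adhesion sites, was 998 and 834 bp, with 313 bp in library 4. Local background at PPFIA1 was 18.9 times the lowest of the library in HET-1A and 8.23 times in KYSE-30. The shared promoter of the kinase gene MAPK7 and the cilium gene B9D1 (chr17:19281121-19281834) was 714 and 736 bp, and reached 599 bp in library 4. UBP1, a transcription factor gene, had 721 and 724 bp, and HNRNPL, a splicing regulator, 687 and 774 bp. Further promoters wide in both were those of the mismatch repair gene PMS2 with AIMP2, of PARP2, UBE2N, GTF2E1 with RABL3, ALKBH5, CNOT3, KMT5C, DCAF7, TLE4 and FDXR. The zinc finger pair ZNF565 and ZNF146 was 698 and 704 bp.

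The site 16.5 kb from the start of LINC00854 (chr17:41399841-41401230) was 1390 bp wide in HET-1A against 1234 bp in KYSE-30. Libraries 1, 4, 7 and 8 gave it widths of 1202, 1250, 1384 and 1410 bp. A site by LINC01606 was wide in all 6 libraries too, between 755 and 884 bp, and these were the only 2 such sites.

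Some of the 40 sites lay in repeated sequence. Stretches of 31 bases were taken every 10 bases of a peak and counted over the genome on both strands. At the REXO1L3P site 74.6% of these stretches occurred elsewhere in the genome and at the SAMD12-AS1 site 74.2%. At the LINC00854 site it was 14.7% and at the LINC01606 site 22.1%. Among all wide peaks, those with 50% or more of such stretches were 14 in HET-1A (3.08%, 1.84 to 5.10) and 15 in KYSE-30 (3.11%, 1.89 to 5.06), against 2.78% (2.54 to 3.05) and 2.49% (2.22 to 2.80) of the narrower, and the intervals overlap. Of the 19 HET-1A peaks of 1000 bp or more it was 3 (15.8%, 5.52 to 37.6), among them TBC1D3 and OR7E4P. Reads of near-identical copies, such as those of the TBC1D3 family, may have been placed at any of them, so these widths are uncertain.

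In both libraries of a line, 6 HET-1A (1.32%) and 8 KYSE-30 sites (1.66%) were wide. Of the narrower sites, 1 of 15524 met a wide peak of library 1 in HET-1A and 4 of 11188 one of library 4 in KYSE-30. The sites named next are those wide in both libraries. For HET-1A these included the sites of TBC1D3 (1556 and 1120 bp), LINC00854, LINC01606, an intron of CD96 (675 and 896 bp) and the first intron of ZNF536 (666 and 786 bp). For KYSE-30 they included the sites of LINC00854, LINC01606 and REXO1L3P, the promoters of LINC00887 (701 and 657 bp), PEX2, a peroxisome biogenesis gene (874 and 696 bp), and TARS1, the cytosolic threonyl-tRNA synthetase (763 and 679 bp), and the first intron of EGFR.

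EGFR, the receptor of epidermal growth factor, was nearest to 5 wide KYSE-30 peaks, more than any other gene there. The widest was also the widest of that library, at 1518 bp (chr7:55200292-55201809) in the first intron, with 227 tags and an AP-1 core at the summit. It lay 22.9 kb from the nearest annotated start, which is a start inside the gene, under the peak of 604 bp. The width of this 1518-bp site was 843 bp in library 4, the other KYSE-30 library, against 295 bp in HET-1A, and libraries 1, 7 and 8 had no peak there. The other 4 wide peaks by EGFR were 602 to 633 bp, and a further wide peak of 619 bp lay by its antisense RNA EGFR-AS1. Of these, the peaks of 627 and 633 bp in the first intron had peaks of 297 and 352 bp in library 4 and none in the other lines, and the peak of 604 bp over an EGFR start met a peak of 200 bp in HET-1A only. The local background at the 5 sites was at least 9.34 times the lowest of the library, and its part in the widths was not tested.

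The local background was raised along whole segments, and wide peaks were frequent in them. Windows of 1 Mb with at least 3 peaks and a median background of at least 4 times the library's lowest held 107 of the 455 wide HET-1A peaks (23.5%, 19.9 to 27.6) and 5.58% of the narrower (5.23 to 5.95). In KYSE-30 they held 22 of 483 (4.55%, 3.03 to 6.80) and 0.769% (0.623 to 0.948). Of the HET-1A peaks in such windows 11.0% were wide (9.18 to 13.1), against 2.32% (2.09 to 2.57) elsewhere, and of the KYSE-30 peaks 20.4% (13.9 to 28.9) against 3.99% (3.65 to 4.36). The HET-1A segments with most wide peaks were on chromosome 8 at 128 to 130 Mb (29 of 183 peaks, at MYC, PVT1, CASC8 and LINC00824), chromosome 11 at 68 to 72 Mb (27 of 244), chromosome 18 at 3 to 5 Mb (19 of 144) and chromosome 19 at 30 to 33 Mb (19 of 183). The KYSE-30 segment with most was on chromosome 7 at 52 to 57 Mb (13 of 61), which holds EGFR, SEC61G and LANCL2. A higher copy number of a segment and more open chromatin in it cannot be told apart from peak lists.

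**Figure D5:**
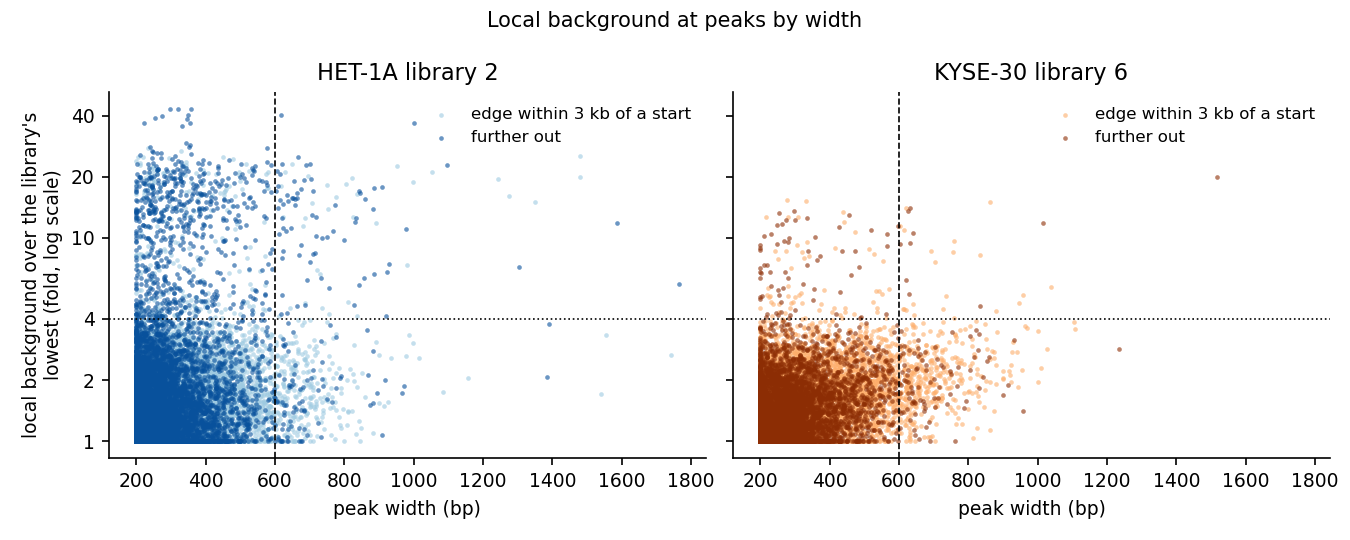
Local background over the library's lowest (fold, log scale) against peak width (bp) for every peak with a recovered background in HET-1A library 2 (left) and KYSE-30 library 6 (right); light points lie within 3 kb of a start site and dark points further out. The dashed line marks 600 bp and the dotted line 4-fold, above which lay 108 of 455 wide HET-1A peaks and 31 of 483 wide KYSE-30 peaks.

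Of the 107 wide HET-1A peaks in raised windows 33 lay at promoters, as did 229 of the 866 narrower peaks there. Of the 22 wide KYSE-30 peaks 14 did, beside 38 of the 86 narrower peaks there. Of the 157 wide HET-1A peaks outside promoters 74 (47.1%, 39.5 to 54.9) were in raised windows, against 8.68% of the narrower (8.06 to 9.35). A KYSE-30 peak met 22 of the 107 in raised windows, beside 28.6% of all HET-1A peaks. In KYSE-30, 11 of the 22 had a HET-1A peak, beside 39.1% of all KYSE-30 peaks. PVT1, a long non-coding RNA next to the transcription factor gene MYC, was nearest to 9 wide HET-1A peaks of 657 to 1276 bp, and SHANK2 and DLGAP1, which encode synaptic scaffold proteins, to 5 each. ZNF536, a zinc finger gene, had 4 in its first intron, with background 15.7 to 40.5 times the lowest. The peak over the start of MYC was 1242 bp wide in HET-1A, with 248 tags, against 207 bp in KYSE-30. TGIF1, a homeodomain repressor gene, had a peak of 1480 bp over its start in HET-1A and none in the other libraries. Fold enrichment over the local background was low at these peaks, beside a median of 4.87 at all wide HET-1A peaks. It was 2.29 at TGIF1, 3.76 at MYC, 1.48 to 2.17 at ZNF536, 1.77 to 2.26 at SHANK2 and 1.66 to 2.50 at DLGAP1. With the raised windows left out, 265 of 348 wide HET-1A peaks lay at promoters (76.1%, 71.4 to 80.3), against 54.3% of the narrower (53.5 to 55.1). A KYSE-30 peak met 202 of these 348 (58.0%, 52.8 to 63.1), against 29.3% of the narrower (28.5 to 30.0).

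Sites without a peak in any library of the other lines numbered 208 for wide HET-1A and 146 for wide KYSE-30 peaks (45.7% and 30.2%, against 70.7% and 61.7% of the narrower). Outside raised windows, the widest such HET-1A promoters were those of SPAG7 (977 bp), ENSG00000232710 (934 bp), ZNF335 (900 bp), the translation factor gene BZW1 (882 bp), the RB family gene RBL1 (838 bp), and LIG1, the replicative DNA ligase, with ZSWIM9 (827 bp). In KYSE-30 they were SERPINI1 with PDCD10 (1001 bp), CCDC39 (901 bp), the cyclin gene CCNG1 (899 bp), PEX2 (874 bp), the ubiquitin adaptor gene UBQLN1 (863 bp) and the chromatin remodelling subunit gene SS18 (851 bp). In the same line's other library CCNG1 had a peak of 249 bp and PEX2 of 696 bp, and SPAG7, BZW1 and LIG1 had none. These sites rest on 1 library each except where so stated, and the few peaks of the short lists limit what absence there shows.

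Outside promoters and raised windows, the widest HET-1A peaks after the LINC00854 site were near RNU7-92P (1385 bp), BNIP3P41 (972 bp), RASA3 (966 bp) and CYP26B1 (917 bp), and the widest KYSE-30 peaks were near NDUFB3P5 (957 bp), RNU7-62P (932 bp), MIR3159 (914 bp) and GNGT2 (899 bp). The GNGT2 site was among the 40 wide in both lists, with 711 bp in HET-1A. The widest KYSE-30 promoter peaks were those of ENSG00000285517 (1108 bp), RBM15, an RNA-binding gene of the m6A methylation machinery (1106 bp), MARS2, the mitochondrial methionyl-tRNA synthetase (1039 bp, in a raised window), TOR1AIP1, a nuclear membrane protein gene (1026 bp), ZFAT (1010 bp) and TMEM18 (1001 bp). The RBM15 peak had widths of 406 bp in library 4, 366 bp in library 7 and 201 bp in HET-1A. In HET-1A, besides TBC1D3, the widest promoter peaks outside raised windows included those of ENSG00000263305 (1742 bp), DCAF11 with NRL (1158 bp), the polarity gene DLG1 (1086 bp) and RABEP2 (1016 bp).

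By gene, 341 of 20162 protein-coding genes (1.69%) had a wide HET-1A peak and 444 (2.20%) a wide KYSE-30 peak within 3 kb of a start, while 35.4% and 28.7% had any peak there. Of 14 AP-1 genes, 10 had a peak in HET-1A and none of these was wide, and 5 had a peak in KYSE-30, of which that over ATF2 was 922 bp (337 bp in HET-1A). No gene of the squamous epithelial (27), mesenchymal (15), YAP and TEAD target (15), HOX (39) or snoRNA host (31) lists had a wide peak in either library, although 13 squamous genes had a peak in HET-1A and 7 in KYSE-30. Of 508 zinc finger genes, 15 had a wide peak in HET-1A (2.95%, such as ZNF768, 999 bp, and ZNF335) and 7 in KYSE-30 (1.38%, such as ZNF140, 829 bp). Some of these genes share a peak, so the distinct wide peaks were 13 and 6. Of 86 ribosomal protein genes RPS19 (659 bp) had a wide peak in HET-1A, and RPL39L (836 bp), RPL27A, RPS27A and RPL15 in KYSE-30. Of 85 respiratory chain and ATP synthase genes, NDUFA11 (704 bp) and ATP5MC1 (625 bp) had a wide peak in HET-1A, and NDUFA4 (767 bp), NDUFA9 (683 bp) and NDUFB5 (615 bp) in KYSE-30. Of 68 histone genes none was wide in HET-1A and 3 in KYSE-30, where H2BC11 and H2AC11 share a peak of 616 bp and H4C3 had another of 616 bp. CDK2, a cell cycle kinase gene, had 631 bp in KYSE-30 and 579 bp in HET-1A. The lists are small, and their counts are read beside the 1.69% and 2.20% of all protein-coding genes.

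Of 12 squamous epithelial markers, checked against the tissue label, 6 had a promoter peak in HET-1A, 3 in KYSE-30 and 1 in library 7, and none did in the short lists of libraries 1, 4 and 8. Of 6 mesenchymal markers, FN1 had a peak in HET-1A and VIM in KYSE-30. None of 3 blood markers and of 1 endothelial marker had a peak in any library. These markers do not tell the 3 oesophageal lines apart.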

How the data were processed

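ATAC-seq libraries of 3 oesophageal cell lines, 2 per line, were made, aligned and peak-called by the authors, and 1 list of narrow peaks per library was deposited. The submitters' processing notes name FastQC 0.11.5, Bowtie2 2.3.3.1, Picard 2.2.1, bedtools 2.7.1, MACS2 2.1.0.20160309 and HOMER, and the coordinates are hg19. Peaks were called per library, with no pooling of replicates. The deposited columns hold the position, a score that the authors' peak caller derived from the q-value, the fold enrichment at the summit over the local background (a ratio), the −log10 p and the −log10 q, and the summit. No read counts or library totals were analysed here, so depth was judged from tags: the tags at a summit and the local background were recovered from the deposited fold enrichment and −log10 p. Their lowest background ran from 1.49 to 3.34 tags per 200 bp over the 6 libraries.

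Peaks of 600 bp or more were the members. They and the gene lists were chosen with earlier results of these data known. Start sites and annotation came from GENCODE 44 lifted to GRCh37, promoters reached 3 kb to each side of a start, and motif cores were counted in 200 bp at the summit. Windows of 1 Mb with at least 3 peaks and a median background of at least 4 times the lowest were called raised. Shares carry Wilson 95% intervals. No test was run, because each long list is 1 library. Named genes were the widest peaks of each list, of those wide in both, of those with no peak in another line and of those outside promoters (the last 2 also without raised windows), genes nearest to 3 or more members, gene-list members with a wide promoter peak, and peaks at the threshold. The further promoters named among the sites wide in both lists, and SF3B6, were chosen after their values were seen. Some sites that this rule names are not reported here. Alternatives were widths of 500 and 800 bp, an equal number of the widest peaks, a stricter q-value, promoters of 1 kb, protein-coding starts, other overlaps, joined gaps, whole peaks, raised windows left out and each library left out. Summit-based shares and counts of repeated 31-base stretches were added after the data were seen. Scripts were tested on simulated data and ran under Python 3.11.15 with pysam 0.24.0 for sequences, matplotlib 3.10.9 for plots, and scipy 1.17.1, pandas 2.3.3 and numpy 2.4.6 for the rest.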

Additional observations from a re-analysis of the deposited data

How the results depend on the processing

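Each long list is 1 library, so every share rests on 1 library per line, and the short lists limit what an absent peak shows. No paired analysis was possible because the library numbers are not shared between lines. Of 106 values under alternatives, 68 stayed within their interval (counts within 1.5 times) and 38 moved further. The stricter q-value kept all 455 and 483 wide peaks, and the equal number of the widest HET-1A peaks was the same 455. Their values for wide peaks could not move and are among the 68. Of 78 with a value for narrower peaks, 75 stayed on the same side of it, some by little (KYSE-30 sharing at 50% overlap, 31.5% against 31.3%). The 3 others were the HET-1A CpG ratio at 800 bp (0.348 against 0.360) and the KYSE-30 AP-1 share at 500 bp (47.2% against 42.4%) and over whole peaks (59.0% against 47.1%). A width of 500 bp gave 1097 HET-1A and 1111 KYSE-30 peaks, 509 and 409 of them with no peak in another line, and in KYSE-30 a start inside 65.5% and sharing of 61.8%. At 800 bp there were 81 and 82 peaks, 36 and 22 with no peak in another line, a median GC of 57.5% and 59.0%, and in HET-1A a promoter share of 59.3%, a start inside 44.4% and sharing of 44.4%. Leaving out raised windows moved the HET-1A promoter share to 76.1% (narrower 54.3%), sharing to 58.0% (narrower 29.3%) and sites of no other line to 126 of 348. With protein-coding starts only, promoter shares were 56.7% and 69.2% and a start lay inside 47.7% and 62.5%. With overlap of 50% of each peak, 26.2% of wide HET-1A and 31.5% of wide KYSE-30 peaks were shared, beside 22.8% and 31.3% of the narrower. At this overlap 324 of 455 and 329 of 483 had no peak in another line. Under the alternatives such counts were taken for wide peaks only, so they are not read as particular to these. In the main setting 45.7% and 30.2% of wide peaks had no peak in another line, against 70.7% and 61.7% of the narrower. With any overlap, 8.79% and 8.28% met a peak of 600 bp or more. AP-1 over whole HET-1A peaks was 33.8%. Without 1 library, sites of no other line numbered 211 to 361 in HET-1A (361 without library 6) and 146 to 433 in KYSE-30 (433 without library 2). By summit, added after the data were seen, a start lay within 100 bp at 30.5% and 51.6%, and 43.3% and 60.9% were shared. The cause of these shifts was not tested, and some alternatives hold fewer peaks or libraries.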
